A study of Mus musculus with 32 samples.

Results

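*S100a8*, *S100a9*, *Cxcr2*, *Csf3r*, *Mmp8*, *Mmp9*, *Retnlg*, *Il1b*, *Clec4d* and *Trem1* are 10 genes that mature neutrophils express, and their transcripts were followed here in lungs and primary tumors of mice with mammary cancer. They were chosen by symbol, and all 10 were found among the 29511 genes of the count table and the 29434 symbols of the FPKM table. FPKM is the number of sequenced fragments per length of transcript and per depth of the library, so that levels of different genes can be compared. The mice were virgin young adult females of the FVB/N strain, either wildtype (WT) or with a constitutive knockout of *Clic4* (KO), a gene of the chloride intracellular channel family. Tumor-bearing mice had been given 6DT1 cells, a line grown from a mammary tumor of an MMTV-Myc transgenic mouse, in the fourth mammary fat pad 14 days before tissue was taken. From these mice came the 14-day lungs of 6 WT and 6 KO mice and the primary tumors of 6 WT and 6 KO hosts, and control lungs came from 4 WT and 4 KO mice at baseline. The knockout is in every host cell, while the injected tumor cells carried *Clic4* in both kinds of host, and controls were other animals than the tumor-bearing mice. Lung tissue from a stage before metastases and tumor tissue were used without sorting of cells. Lungs had been divided into lobes before freezing, and how much of a lung went into each RNA sample is not given in the sources used here.

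Neutrophils are made in bone marrow under granulocyte colony-stimulating factor (G-CSF), which acts through the receptor Csf3r, and they enter blood and tissue along chemokines that bind Cxcr2. Mature cells hold large amounts of S100a8 and S100a9, which pair into the alarmin calprotectin, and carry granules with the metalloproteinases Mmp8 and Mmp9. They are known to gather in the lungs of mice with mammary tumors. In bulk tissue, more cells of a type and more RNA per cell cannot be told apart.

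Each of the 32 libraries held 4446323 to 8318711 gene counts. *Clic4* had 155 to 229.7 FPKM in WT lungs and 55.4 to 74.6 FPKM in KO lungs, so every lung matched its genotype label. *Ly6g*, the classical surface marker of mouse neutrophils, had 0 to 4 counts in any lung and 0 in every tumor, so it could not serve as a check of the cell type at this depth. The lung labelled 14-day KO replicate 2 stood apart from the others of its group. It had 262 counts over the 10 genes together, whereas the other 5 lungs of the group had 742 to 2632. In the mean z-score of the 10 genes it ranked lowest of all 20 lungs, below every control. Its 5428849 counts in total and its *Clic4* level of 66.6 FPKM were within the range of its group, as was its summed level of 10 monocyte and macrophage markers, at 158 FPKM. Also within range was its summed level of 26 other mature neutrophil genes, at 323 FPKM against 307 to 440 FPKM in the others. The same held for its summed T and NK cell markers, at 25.2 FPKM, and B cell markers, at 54.1 FPKM. Its summed level of 5 platelet markers, at 34.7 FPKM, was below the 49.1 to 73.1 FPKM of the others in the group. The comparisons of the 10 genes in KO lungs, and the calls of other gene lists there, are therefore given with and without it, and why it was low was not tested.

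**Figure D1:**
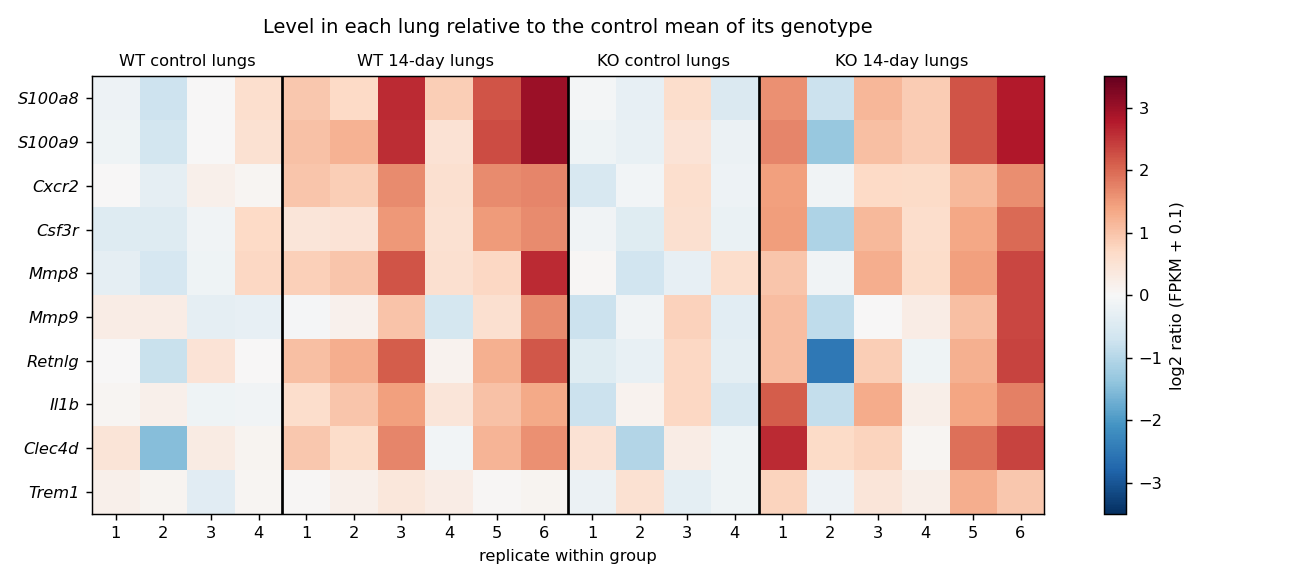
Each column is 1 of the 20 lungs, each row 1 of the 10 genes, and the color is the log2 ratio of FPKM + 0.1 to the same value of the control mean of that genotype. Most cells of 14-day lungs are red in the rows above *Trem1*, which is pale in WT lungs and redder in KO 14-day replicates 1, 5 and 6. The column of 14-day KO replicate 2 is blue or near white except for *Clec4d*.

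Over both genotypes, 9 of the 10 genes were higher in lungs of tumor-bearing mice than in control lungs when calls required FDR below 0.25 with at least 1.5-fold change, the limits that the study uses for lungs. Of all 16029 genes tested in lungs, 0.424% were higher past the same limits. The log2 fold changes of the 10 genes had a median of 1.29, against 0.00 for all genes tested, and ran from 0.38 for *Trem1* to 1.86 for *S100a9*. *Trem1* was the gene that did not pass. All 10 had an unadjusted p below 0.05 in this contrast, which was the case upwards for 6.33% of all genes. With each lung left out in turn, 8 or 9 genes passed, and only *Mmp9* was lost, in 11 of the 20 fits. With DESeq2, 7 of the 10 genes passed, where 0.137% of all genes were higher. It gave an adjusted p to 7 of the 10, and genes without one count as not passed in both shares. At the stricter FDR of 0.05 in edgeR's fit, 3 passed (0.0749% of all genes).

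*S100a8* encodes the smaller chain of calprotectin, which signals through Tlr4 and binds zinc and calcium. In WT control lungs it had 26.1, 17.6, 30.0 and 44.0 FPKM, and in WT 14-day lungs its lowest, median and highest levels were 48.1, 95.8 and 235 FPKM. In KO control lungs it had 32.3, 28.1, 52.1 and 23.9 FPKM, and in KO 14-day lungs 20.1, 89.9 and 233 FPKM. All 6 WT 14-day lungs lay above all WT controls, and 5 of 6 KO 14-day lungs lay above all KO controls, with replicate 2 below them. The WT 14-day lungs split into 3 at 48.1 to 57.0 FPKM and 3 at 135 FPKM or more. Over both genotypes *S100a8* rose 3.59-fold (log2 1.84, SE 0.38, FDR 0.0439). Within WT lungs it rose by 2.02 on the log2 scale (SE 0.54, FDR 0.164), and within KO lungs the difference was 1.67 (SE 0.54, FDR 0.304), which did not pass.

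*S100a9*, the larger chain of calprotectin, was the most abundant of the 10 transcripts in each of the 20 lungs. Its levels in WT control lungs were 49.6, 35.7, 56.0 and 80.2 FPKM, against a lowest, median and highest level of 78.2, 199.7 and 446 FPKM in WT 14-day lungs. In KO control lungs they were 60.8, 55.9, 94.1 and 58.6 FPKM, against 26.7, 181 and 470.5 FPKM in KO 14-day lungs. In each genotype 5 of 6 tumor-bearing lungs lay above all controls, the exceptions being WT replicate 4 and KO replicate 2. *S100a9* rose 3.64-fold over both genotypes (log2 1.86, SE 0.39, FDR 0.0439). The log2 fold change was 2.05 in WT lungs (SE 0.56, FDR 0.169), which passed, and 1.68 in KO lungs (SE 0.55, FDR 0.304), which did not. The ratio of *S100a9* to *S100a8* FPKM had a median of 1.93 over the lungs and a range of 1.33 to 2.68, and its group medians lay between 1.89 and 1.96, while the *S100a9* level itself ran from 26.7 to 470.5 FPKM over the lungs.

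*Cxcr2* encodes the chemokine receptor that draws neutrophils out of the marrow and into tissue. It had 3.36, 2.64, 3.82 and 3.53 FPKM in WT control lungs, and 4.95, 8.72 and 11.2 FPKM as the lowest, median and highest level in WT 14-day lungs. KO control lungs had 2.33, 3.29, 5.30 and 3.05 FPKM, and KO 14-day lungs 3.19, 6.80 and 11.0 FPKM. The WT groups did not overlap, and in KO lungs only 14-day replicate 2 fell within the control range. *Cxcr2* had the smallest FDR of the 10 genes over both genotypes, with a 2.27-fold rise (log2 1.18, SE 0.21, FDR 0.0251). It also passed in WT lungs, by 1.34 on the log2 scale (SE 0.29, FDR 0.101), and in KO lungs, with 1.02 (SE 0.30, FDR 0.248), a call that was lost in 15 of the 20 fits with 1 lung left out.

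*Csf3r* encodes the G-CSF receptor, through which neutrophil production and survival are driven. Levels in WT control lungs were 6.59, 6.59, 8.23 and 14.7 FPKM, and in WT 14-day lungs 12.1, 19.5 and 28.4 FPKM at the lowest, median and highest. KO control lungs had 7.56, 6.10, 12.1 and 7.02 FPKM, and KO 14-day lungs 3.80, 19.7 and 32.6 FPKM. WT control replicate 4 was as high as the lower 3 WT 14-day lungs, and KO 14-day replicate 2 was below every control. *Csf3r* rose 2.44-fold over both genotypes (log2 1.29, SE 0.28, FDR 0.0513) and by 1.42 on the log2 scale in KO lungs (SE 0.40, FDR 0.217), while the difference of 1.15 in WT lungs (SE 0.39, FDR 0.261) did not pass. The gene lies on chromosome 4 from 126024550 to 126044440 (GRCm38), 9.2 Mb below the start of *Clic4*, so that of the 10 genes it alone is on the chromosome of the knocked-out gene.

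*Mmp8*, the collagenase of neutrophil granules, was the least abundant of the 10 genes in control lungs. WT control lungs had 0.59, 0.47, 0.67 and 1.32 FPKM, from 6 to 18 counts, and WT 14-day lungs 1.18, 1.51 and 5.15 FPKM at the lowest, median and highest. KO control lungs had 0.92, 0.53, 0.72 and 1.42 FPKM, and KO 14-day lungs 0.82, 2.07 and 4.95 FPKM. *Mmp8* rose 2.90-fold over both genotypes (log2 1.53, SE 0.36, FDR 0.0774) and by 1.67 on the log2 scale in WT lungs (SE 0.51, FDR 0.209). In KO lungs the difference was 1.40 (SE 0.51, FDR 0.397), which did not pass, and the groups overlapped in both genotypes.

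*Mmp9*, the gelatinase of late granules, had 2.87, 2.86, 1.91 and 1.94 FPKM in WT control lungs and a lowest, median and highest level of 1.53, 3.10 and 7.72 FPKM in WT 14-day lungs. In KO control lungs it had 1.26, 2.0, 3.90 and 1.67 FPKM, and in KO 14-day lungs 1.15, 3.67 and 11.5 FPKM. In each genotype 3 of 6 tumor-bearing lungs lay above all controls. The rise over both genotypes was 1.89-fold (log2 0.92, SE 0.31, FDR 0.207), and it was the 1 of the 9 calls that single lungs decided. It was lost without any 1 of the 4 WT controls, KO control replicates 1, 2 or 4, WT 14-day replicates 3 or 6 or KO 14-day replicates 1 or 6, with FDRs up to 0.357, and also in limma's test of FPKM, with FDRs of 0.557 and 0.571. The log2 fold change was 0.58 in WT lungs (SE 0.43, FDR 0.623) and 1.26 in KO lungs (SE 0.45, FDR 0.389), and neither passed.

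*Retnlg*, which encodes a resistin-like secreted protein of mouse neutrophils, had 9.96, 5.71, 13.7 and 9.81 FPKM in WT control lungs and 10.8, 23.7 and 44.9 FPKM at the lowest, median and highest in WT 14-day lungs. In KO control lungs it had 7.96, 8.83, 17.6 and 8.34 FPKM. KO 14-day lungs ranged from 1.82 FPKM, from 4 counts in replicate 2, over a median of 21.1 to 55.3 FPKM. As a ratio of highest to lowest this was the widest span of the 10 genes in a lung group, and the groups overlapped in both genotypes. *Retnlg* rose 2.44-fold over both genotypes (log2 1.29, SE 0.37, FDR 0.146). The differences of 1.52 in WT lungs (SE 0.52, FDR 0.268) and 1.06 in KO lungs (SE 0.54, FDR 0.600) did not pass.

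*Il1b* encodes interleukin-1 beta, a cytokine that neutrophils share with monocytes and macrophages. It had 10.7, 11.6, 9.12 and 9.44 FPKM in WT control lungs, the narrowest control group of the 10 genes with a coefficient of variation of 11.1%, and 13.8, 20.5 and 27.7 FPKM at the lowest, median and highest in WT 14-day lungs, which all lay above the controls. In KO control lungs it had 4.47, 8.21, 12.6 and 5.16 FPKM, and in KO 14-day lungs 4.23, 19.4 and 33.1 FPKM, where replicate 4 lay within the control range and replicate 2 below it. *Il1b* rose 2.19-fold over both genotypes (log2 1.13, SE 0.27, FDR 0.0795). Within genotypes the differences were 1.03 in WT lungs (SE 0.37, FDR 0.284) and 1.23 in KO lungs (SE 0.39, FDR 0.296), and neither passed.

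*Clec4d* and *Trem1* encode activating surface receptors of myeloid cells, Clec4d as a lectin for sugars and glycolipids of microbes and Trem1 as an amplifier of inflammation. *Clec4d* had 3.08, 0.73, 2.78 and 2.39 FPKM in WT control lungs and 2.09, 4.85 and 7.56 FPKM at the lowest, median and highest in WT 14-day lungs. In KO control lungs it had 2.47, 0.78, 2.05 and 1.51 FPKM, and in KO 14-day lungs 1.80, 4.89 and 11.0 FPKM. In each genotype 5 of 6 tumor-bearing lungs were above all controls. It rose 2.63-fold over both genotypes (log2 1.40, SE 0.35, FDR 0.0917), with differences of 1.27 in WT lungs (SE 0.47, FDR 0.306) and 1.53 in KO lungs (SE 0.50, FDR 0.308) that did not pass. *Trem1* had 2.55, 2.42, 1.68 and 2.35 FPKM in WT control lungs and 2.30, 2.48 and 3.0 FPKM at the lowest, median and highest in WT 14-day lungs, so the WT groups lay within each other's range for most lungs. In KO lungs it had 1.41, 2.41, 1.27 and 1.48 FPKM in controls and 1.43, 2.55 and 4.12 FPKM at 14 days. Its log2 fold change was 0.38 over both genotypes (SE 0.18, FDR 0.399), 0.20 in WT lungs (SE 0.24, FDR 0.778) and 0.55 in KO lungs (SE 0.26, FDR 0.554).

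**Figure D2:**
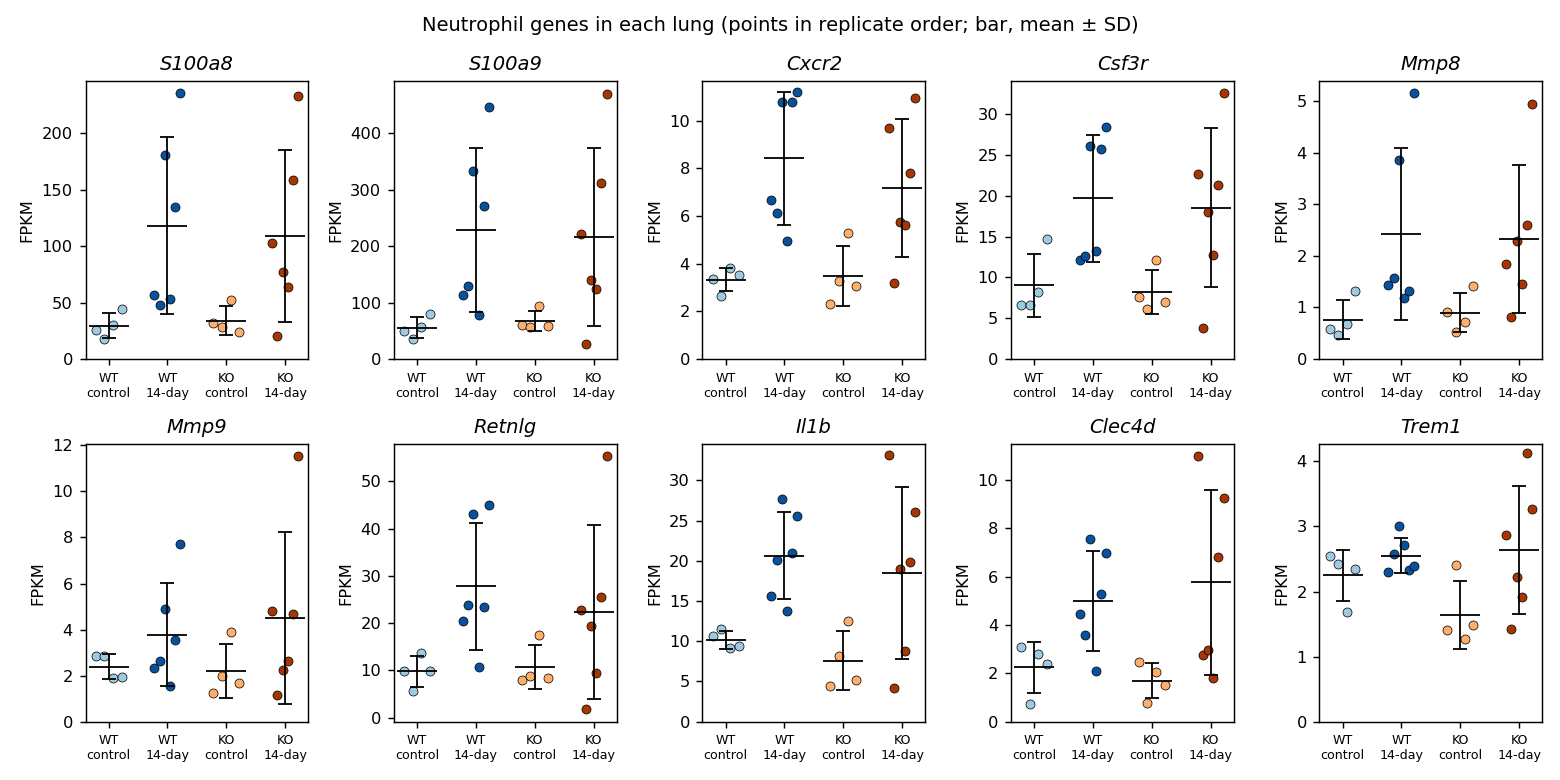
FPKM of each gene in each lung, by genotype and tumor burden, with 4 control and 6 14-day lungs per genotype. Horizontal bars are means and whiskers 1 SD. In 9 panels the 14-day means lie above the control means of the same genotype by 1.58-fold or more, and for *Trem1* the ratio of means is 1.13 in WT lungs and 1.61 in KO lungs.

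The promoters of the 4 genes that passed in WT lungs are shown so that the regulatory sequence beside these changes can be read. Each is the 250 bases before the RefSeq transcript start on the strand of the gene in GRCm38.p6, at chr3:90668821-90669070 (plus strand) for *S100a8*, chr3:90695722-90695971 (minus) for *S100a9*, chr1:74153744-74153993 (plus) for *Cxcr2* and chr9:7558179-7558428 (plus) for *Mmp8*. Capitals mark matches to GAGGAA, the core of the site of the myeloid factor PU.1, or its complement TTCCTC, to TTNCNNAA on either strand, a loose form of the site of C/EBP factors, and to TATAAA on the strand of the gene. The GENCODE models of *S100a8* and *Cxcr2* start earlier, at 90668978 and 74153989, within these windows. No marked matches overlap each other.
S100a8: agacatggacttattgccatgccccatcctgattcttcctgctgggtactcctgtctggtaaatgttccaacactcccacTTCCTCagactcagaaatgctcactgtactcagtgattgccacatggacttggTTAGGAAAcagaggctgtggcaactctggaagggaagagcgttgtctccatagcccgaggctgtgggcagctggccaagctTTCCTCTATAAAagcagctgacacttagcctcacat
S100a9: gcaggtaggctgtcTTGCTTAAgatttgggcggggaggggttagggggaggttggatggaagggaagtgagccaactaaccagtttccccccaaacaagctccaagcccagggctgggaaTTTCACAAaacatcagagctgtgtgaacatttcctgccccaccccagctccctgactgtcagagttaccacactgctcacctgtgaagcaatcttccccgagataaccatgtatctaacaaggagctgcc
Cxcr2: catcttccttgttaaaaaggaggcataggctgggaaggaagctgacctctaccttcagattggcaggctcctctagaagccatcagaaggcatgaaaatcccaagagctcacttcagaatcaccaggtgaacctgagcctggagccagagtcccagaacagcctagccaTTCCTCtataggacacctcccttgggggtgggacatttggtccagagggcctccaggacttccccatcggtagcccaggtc
Mmp8: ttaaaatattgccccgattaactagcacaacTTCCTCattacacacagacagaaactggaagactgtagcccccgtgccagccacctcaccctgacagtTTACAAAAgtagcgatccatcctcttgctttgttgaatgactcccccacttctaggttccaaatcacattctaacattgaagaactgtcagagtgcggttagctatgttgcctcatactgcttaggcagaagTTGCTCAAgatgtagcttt

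RefSeq promoters were matched for 9 of the 10 genes, all but *Mmp9*. GAGGAA was found on either strand in 6 of the 9 (*S100a8*, *Cxcr2*, *Csf3r*, *Mmp8*, *Clec4d* and *Trem1*), against 23.3% of the 32851 mouse promoters of the same length. TTNCNNAA was found in 7 of the 9, all but *Cxcr2* and *Csf3r*, against 36.8% of promoters. TATAAA stood in *S100a8*, starting 30 bases before the transcript, and in *Il1b*, starting 31 bases before it, against 7.59% of promoters. A form of the site of NF-kB, GGGA followed after any 4 bases by CC and searched on both strands, was found only in *Csf3r*, against 17.6% of promoters. These matches are descriptions of the letters in these windows, and binding was not measured.

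Within WT lungs, 4 of the 10 genes passed the limits (*S100a8*, *S100a9*, *Cxcr2* and *Mmp8*), where 0.331% of all genes were higher past them. Within KO lungs 2 of the 10 passed (*Cxcr2* and *Csf3r*), where 0.212% of all genes did. An unadjusted p below 0.05 was found for 8 of the 10 in WT lungs, against 6.00% of all genes upwards, and for 9 of the 10 in KO lungs, against 4.79%. The median log2 fold change of the 10 genes was 1.3 in WT and 1.33 in KO lungs. In WT lungs the 14-day values lay wholly above the controls for 3 of the 10 genes (*S100a8*, *Cxcr2* and *Il1b*), as for 1.21% of all genes. In KO lungs this held for 0 of the 10, where 0.899% of all genes did so, and 14-day KO replicate 2 set that count. Without it, the other 5 KO 14-day lungs lay wholly above the controls for 5 of the 10 genes (*S100a8*, *S100a9*, *Cxcr2*, *Csf3r* and *Mmp8*), as for 1.49% of all genes, a count made after seeing the data.

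Without 14-day KO replicate 2, 7 of the 10 genes passed in KO lungs, where 0.274% of all genes were higher past the limits, and 8 in WT lungs, where 0.479% were. This lung was left out for its low values in the same genes, so higher KO values without it follow from that choice. The fit shares its spread between genotypes. The SE of *S100a8* in WT lungs was 0.54 with this lung and 0.47 without it, and the cause of the shift in the WT count was not tested. The genes past the limits in KO lungs were then *S100a8* with a log2 value of 1.88 (SE 0.48, FDR 0.150), *S100a9* with 1.9 (SE 0.46, FDR 0.130), *Cxcr2* with 1.16 (SE 0.27, FDR 0.130), *Csf3r* with 1.63 (SE 0.31, FDR 0.0655), *Mmp9* with 1.45 (SE 0.40, FDR 0.198), *Il1b* with 1.43 (SE 0.31, FDR 0.103) and *Clec4d* with 1.71 (SE 0.46, FDR 0.188). *Mmp8* at 1.57 (SE 0.49, FDR 0.256), *Retnlg* at 1.3 (SE 0.45, FDR 0.317) and *Trem1* at 0.66 (SE 0.24, FDR 0.364) did not pass. The WT count also moved with single WT lungs, falling to 1, *Cxcr2*, without 14-day replicate 6, control replicate 1 or control replicate 3, and to 0 without control replicate 2. The KO count fell to 0 without any 1 of the other 5 KO 14-day lungs or the 4 KO controls, and to 1, *Csf3r*, without WT 14-day replicate 1 or 2 or any 1 of the 4 WT controls.

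**Figure D3:**
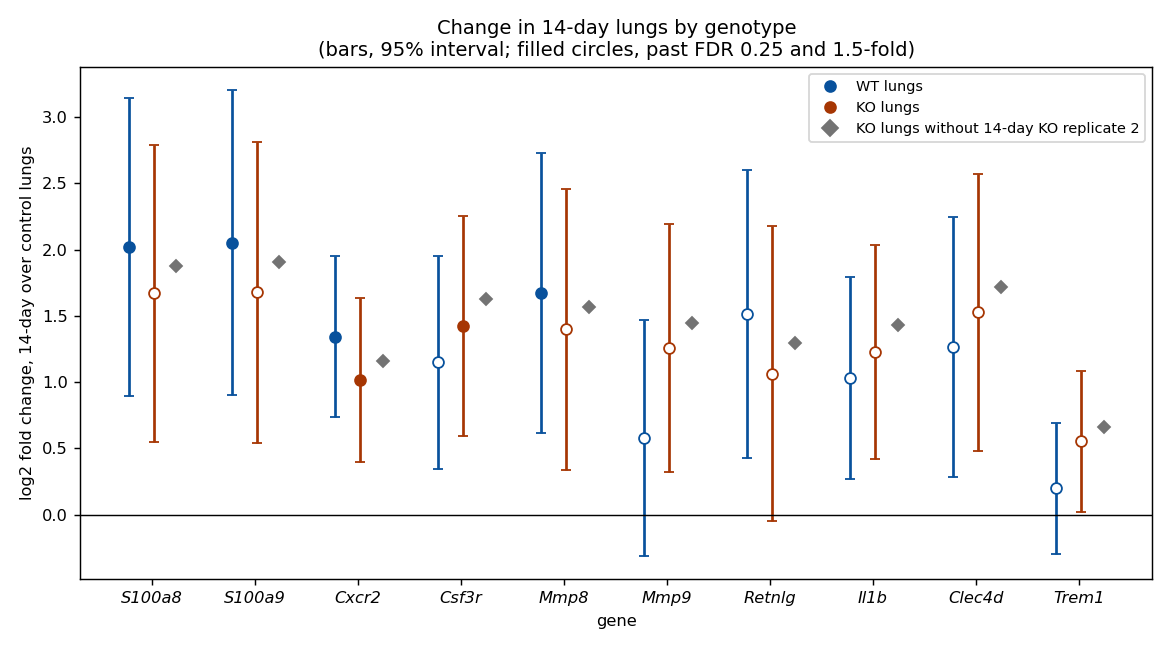
Log2 fold change of 14-day over control lungs for each gene in WT lungs (blue) and KO lungs (brown), with 95% intervals from the edgeR fit of all 20 lungs. Filled circles passed both limits (FDR 0.25, 1.5-fold), and gray diamonds give the KO value without 14-day KO replicate 2, which is above the brown circle for all 10 genes. That lung was left out for its low values in these genes, so higher diamonds follow from the choice. The blue and brown intervals overlap for every gene.

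The genotypes were compared directly to ask whether loss of host *Clic4* altered these transcripts in the lung. Between KO and WT 14-day lungs, 0 of the 10 genes passed, and 0 had an unadjusted p below 0.05 in edgeR's test, where 0.212% and 8.34% of all genes did in either direction. DESeq2 and limma also called 0. The log2 differences, KO minus WT, ran from -0.30 for *Retnlg* (95% interval -1.16 to 0.57) to 0.32 for *Mmp9* (-0.43 to 1.07). For *S100a8* the difference was -0.11 (-0.98 to 0.75), for *S100a9* -0.08 (-0.98 to 0.83), for *Cxcr2* -0.23 (-0.73 to 0.27) and for *Il1b* -0.15 (-0.79 to 0.49). For the alarmins these intervals reach nearly 2-fold lower levels in KO lungs, so equal levels are not shown. Without 14-day KO replicate 2, 0 of the 10 passed, the difference was 0.10 for *S100a8* and 0.15 for *S100a9*, and the 10 values ran from -0.085 for *Cxcr2* to 0.51 for *Mmp9*. In control lungs 0 of the 10 passed and 0 had an unadjusted p below 0.05 (0.231% and 11.6% of all genes), and the log2 differences ran from -0.42 for *Trem1* (-0.99 to 0.16) to 0.30 for *S100a9* (-1.0 to 1.60). The interaction, which asks whether the change with tumor differed by genotype, passed for 0 of the 10 at an FDR of 0.25, where 0.0499% of all genes did. It ran from -0.45 for *Retnlg* (-2.03 to 1.12) to 0.68 for *Mmp9* (-0.62 to 1.97), with FDRs of 0.798 or more and unadjusted p below 0.05 for 0 of the 10, against 8.53% of all genes. Without 14-day KO replicate 2 it passed for 0 of the 10 and ran from -0.22 for *Retnlg* to 0.87 for *Mmp9*.

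The levels of the 10 genes moved together from lung to lung. Over the 20 lungs, the 45 pairs of genes had Pearson correlations of log2 levels between 0.48 and 0.985, with a median of 0.858. After each group's mean was removed, the median was 0.822 with a range of 0.329 to 0.976. *S100a8* and *S100a9* formed the closest pair, and pairs with *Trem1* were the loosest, with a median of 0.588. All values of a lung share its library and depth, so these correlations are a description. Apart from the 10 genes, those whose levels were most like their mean z-score were *Nlrp12*, a pattern-recognition receptor gene of neutrophils (r = 0.936), *Pla2g7*, which encodes the hydrolase of platelet-activating factor (r = 0.930), the pseudogene *Gad1-ps* (r = 0.926), *Cd300lf* (r = 0.899) and *Ccr1*, a chemokine receptor gene (r = 0.892), each over 20 lungs. The next were *Lilr4b*, *Il1r2*, *Asprv1*, *Emilin2* and *Mgam*, with r between 0.867 and 0.891. After group means were removed, r of these 10 genes was between 0.785 and 0.909.

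The other genes of neutrophils and of the pathways around the 10 genes were followed in the same fit over both genotypes. Of 26 other genes of mature neutrophils, 22 could be tested and 4 rose past the limits, as 0.424% of all genes did, with a median log2 fold change of 0.11. The 4 genes were *Slfn4* at 2.24 (SE 0.70, FDR 0.174), *Il1r2*, the decoy receptor of interleukin-1, at 2.02 (SE 0.49, FDR 0.0864), *Mrgpra2b* at 2.02 (SE 0.56, FDR 0.127) and the protease gene *Asprv1* at 1.78 (SE 0.65, FDR 0.249). The other 18 had log2 fold changes over both genotypes from -0.31 to 0.51, and why they did not pass was not tested. The summed level of the 26 genes had a median of 360 FPKM in WT control lungs and 356 FPKM in WT 14-day lungs. In KO lungs the medians were 334 FPKM in controls and 360 FPKM at 14 days. At an unadjusted p below 0.05, 7 of the 22 were higher over both genotypes, against 6.33% of all genes, and 1 was lower. In WT lungs 1 of the 22 passed, against 0.331% of all genes, *Mrgpra2b* at 2.67 (SE 0.78, FDR 0.202), and at an unadjusted p below 0.05 4 were higher and 2 lower, against 6.00% and 5.76% of all genes. In KO lungs 0 passed in edgeR's test, with 3 higher and 1 lower at an unadjusted p below 0.05, against 4.79% and 3.86% of all genes. With 14-day KO replicate 2 left out, 21 of these genes could be tested, and 3 passed over both genotypes (*Il1r2*, *Asprv1* and *Mrgpra2b*). In that fit 3 passed in WT lungs (*Slfn4*, *Il1r2* and *Mrgpra2b*), where 0.479% of all genes did, and 1 in KO lungs (*Il1r2*), where 0.274% did. At an unadjusted p below 0.05 in edgeR's test, 7 of the 21 were then higher and 1 lower in KO lungs. Shares of all genes over both genotypes and at that p were not taken for this fit. Of 12 granule genes of immature neutrophils, 8 had too few counts for a test, among them *Elane* and *Mpo*, and *Ms4a3* had 0 counts in all lungs. *Ngp*, a secondary granule gene, was the 1 of the 4 tested that rose, at 1.74 (SE 0.52, FDR 0.152), while *Ltf* at 0.12, *Cd177* at 0.20 and *Lcn2* at -0.47 did not pass.

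Of 8 genes of the Cxcr2 ligand and retention axis, 5 could be tested and 1 rose, where 0.424% of all genes did, *Ppbp*, a chemokine of platelets, at 0.71 (SE 0.19, FDR 0.124). The epithelial chemokine *Cxcl15* had a log2 fold change of -0.47 (SE 0.14, FDR 0.148), which was under the fold limit, and *Cxcl2* had 0.19 (SE 0.49, FDR 0.917). In the G-CSF and GM-CSF axis 0 of 6 tested genes passed, with log2 fold changes from -0.03 to 0.44. In the interleukin-1 axis 1 of 9 passed, *Il1r2*, while *Nlrp3*, an inflammasome gene, at 0.49 (SE 0.16, FDR 0.189) was under the fold limit. Of 7 receptors and relatives of S100a8 and S100a9, including *Tlr4* at -0.03 and *Ager* at -0.07, 0 passed. Of 7 partners of Trem1 and Clec4d, 1 passed, *Clec4e*, the neighbor and partner of *Clec4d*, at 0.91 (SE 0.28, FDR 0.165). Of 7 inhibitors and partners of the metalloproteinases 0 passed, with *Timp1* at 0.25 (SE 0.20, FDR 0.667).

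Markers of other cells were read in the same way. Of 10 markers of monocytes and macrophages 0 passed, with a median log2 fold change of 0.15, and of 10 markers of alveolar macrophages 1 was lower past the limits, as 0.150% of all genes were, *Marco*, at -0.91 (SE 0.17, FDR 0.0343). Markers of T and NK cells (0 of 7), B cells (0 of 5), lung epithelium and endothelium (0 of 8), cardiac muscle (0 of 7), mammary epithelium (0 of 6 tested) and eosinophils, basophils and mast cells (0 of 1 tested) gave no calls. Within genotypes, B cell markers had a median of -0.58 in WT lungs, with 5 of 5 negative, and 0.35 in KO lungs, with 5 of 5 positive. Their interaction had an unadjusted p below 0.05 for 2 of 5 and passed for 0, where 8.53% and 0.0499% of all genes did in edgeR's test. T and NK cell markers had a median of -0.31 in WT lungs, with 7 of 7 negative, and 0.14 in KO lungs, with 4 of 7 positive. Without 14-day KO replicate 2, the KO medians were 0.48 for B cell and 0.18 for T and NK cell markers, and the B cell interaction had an unadjusted p below 0.05 for 4 of 5 and passed for 0. All 5 platelet markers had positive log2 fold changes over both genotypes, with a median of 0.56, and *Ppbp* passed, as 0.424% of all genes did. In KO lungs *Itga2b* passed at 0.82 (SE 0.24, FDR 0.224), where 0.212% of all genes did. By genotype, the platelet median was 0.34 in WT lungs, with values from -0.35 to 0.51 and 0 of 5 at an unadjusted p below 0.05, and 0.82 in KO lungs, with 5 of 5 higher at that p, against 4.79% of all genes. The interaction passed for 0 of the 5, with 1 at an unadjusted p below 0.05 in edgeR's test. *Ppbp* and *Itga2b* passed in KO lungs and over both genotypes when 14-day KO replicate 2 was left out, with a KO median of 0.91. In that fit 0.274% of all genes passed in KO lungs, and the share over both genotypes was not taken. Between control lungs in that fit, KO minus WT was negative for 5 of 5 platelet, 5 of 5 B cell and 7 of 7 T and NK cell markers. The medians were -0.57, -0.66 and -0.50, and between 14-day lungs they were 0.05, 0.45 and 0.21. The summed platelet level was 27.4 to 57.8 FPKM in control lungs and 34.7 to 73.1 FPKM in 14-day lungs, and its log2 value had r = 0.765 with the mean z-score of the 10 genes over 20 lungs. Erythroid markers (0 of 7 called) had r = 0.222, and their summed level reached 23825 FPKM in KO 14-day replicate 6, the lung with the highest mean z-score, against 6103 to 14182 FPKM in the other lungs. Their median log2 fold change was -0.16 in WT lungs, with 6 of 7 negative, and 0.42 in KO lungs, with 7 of 7 positive (0.48 without 14-day KO replicate 2), and the interaction had a median of 0.54, with 0 of 7 at an unadjusted p below 0.05 in edgeR's test. The part of platelet or blood content in the rise of the 10 genes was not tested.

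**Figure D4:**
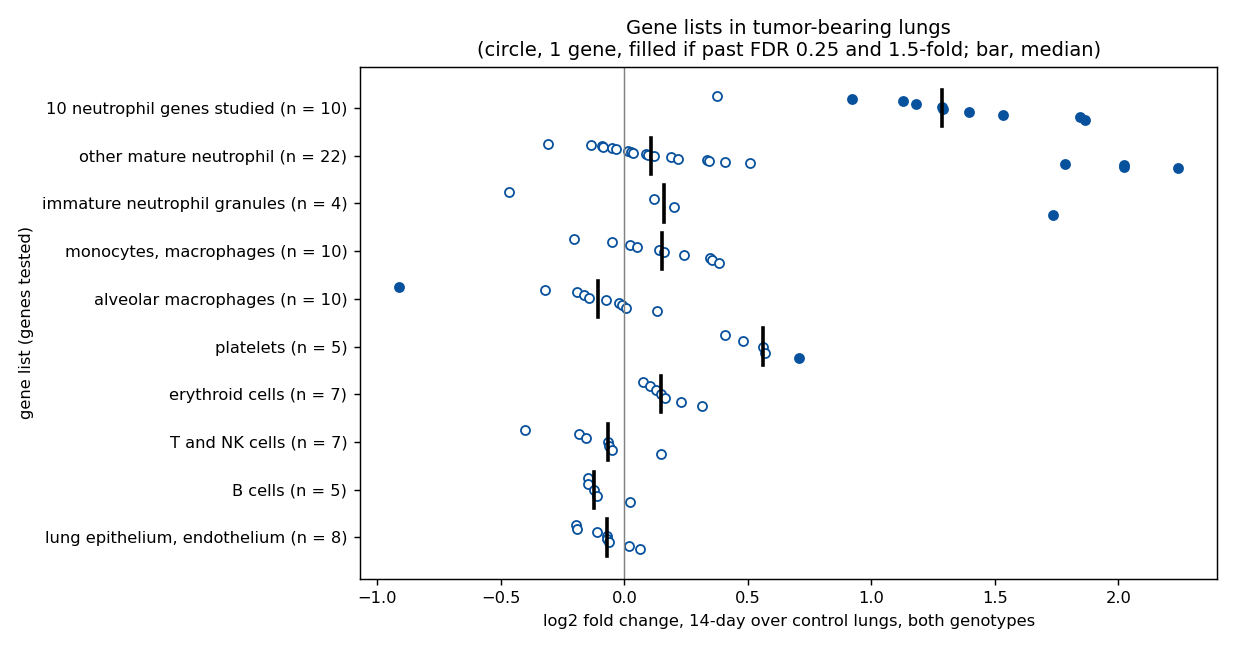
Log2 fold change of 14-day over control lungs in both genotypes, with each circle 1 gene, filled where it passed both limits (FDR 0.25, 1.5-fold), and the bar the median of the list. The 10 neutrophil genes have a median of 1.29 and 9 filled circles, platelets a median of 0.56 with 1 filled, and the other lists shown medians between -0.12 and 0.16.

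In primary tumors, 8 of the 10 genes had enough counts for a test between hosts, and 0 passed the limits used for tumors (FDR 0.05, 2-fold), where 1.06% of 13830 genes did. *Cxcr2* was the only 1 with an unadjusted p below 0.05, against 15.5% of all genes. It had 1.35, 1.49 and 1.86 FPKM at the lowest, median and highest in tumors of WT hosts and 1.57, 1.93 and 2.41 FPKM in tumors of KO hosts. The log2 difference was 0.41 (95% interval 0.03 to 0.78, FDR 0.280), and the groups overlapped. *S100a8* had 3.14, 5.71 and 8.28 FPKM in tumors of WT hosts and 0.71, 10.3 and 14.1 FPKM in those of KO hosts, which spread on both sides of the WT range (log2 difference 0.60, interval -0.42 to 1.62, FDR 0.600). *S100a9* differed by 0.13 (-0.84 to 1.10), *Csf3r* by 0.40 (-0.08 to 0.87), *Il1b* by 0.34 (-0.20 to 0.87), *Mmp9* by 0.23 (-0.85 to 1.31), *Clec4d* by 0.44 (-0.56 to 1.43) and *Trem1* by 0.16 (-0.65 to 0.96). *Mmp8* had 0 to 19 counts and *Retnlg* 0 to 22 counts per tumor, and neither entered the test. Of the 17 testable other genes of mature neutrophils 1 was higher in tumors of KO hosts, where 1.01% of all genes were, *Acod1* (listed as *Irg1*), the itaconate enzyme gene, at 2.48 (SE 0.40, FDR 0.00243). The median of the 17 was 0.47, and at an unadjusted p below 0.05 11 were higher and 1 lower, where 15.5% of all genes passed in either direction. In the G-CSF and GM-CSF axis 0 of 5 tested genes passed in edgeR's test, and 5 of 5 were higher at an unadjusted p below 0.05, with a median of 0.64. For this list and the next ones, the share of all genes at that p is the same 15.5%, which counts both directions. The share upwards alone was not taken. Other lists lay higher in tumors of KO hosts too. T and NK cell markers were positive in 6 of 6, 4 at an unadjusted p below 0.05, with a median of 0.94, monocyte and macrophage markers in 9 of 10, 5 at that p, with a median of 0.39, and the interleukin-1 axis in 7 of 7, 4 at that p, with a median of 0.35. The part of these cells in the neutrophil values was not tested. In the pathway lists, the acute-phase gene *Saa3* at 2.26 (SE 0.38, FDR 0.00318) and the fungal sugar receptor gene *Clec7a* at 1.46 (SE 0.32, FDR 0.0230) were also higher in tumors of KO hosts, as was the T cell marker *Cd3d* at 1.46 (SE 0.35, FDR 0.0391).

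The primary tumors held less of most of these transcripts than the 14-day lungs did. In WT hosts 7 of the 10 genes were lower in tumors than in 14-day lungs past these limits, where 22.3% of 16115 genes were, and in KO hosts 6 of the 10 were, where 21.2% of genes were. The log2 difference of *S100a8* was -4.24 in WT hosts (SE 0.59, FDR 3.76e-07) and -3.55 in KO hosts (SE 0.55, FDR 2.57e-06), and its mean level in tumors was 4.87% and 7.83% of that in lungs. *S100a9* had log2 differences of -3.91 and -3.70, with lung groups wholly above tumor groups in WT hosts, where no tumor exceeded 17.2 FPKM. *Cxcr2* had -2.39 and -1.77, *Csf3r* -2.24 and -1.87, *Mmp8* -3.15 and -2.21, and *Retnlg* -3.41 and -2.32, and all passed in both hosts. The *Retnlg* value in WT hosts was -4.79 without WT-host tumor replicate 6, and the *Mmp8* value in KO hosts was -2.95 without KO-host tumor replicate 5. *Il1b* passed in WT hosts at -1.03 (SE 0.33, FDR 0.00746), a call that fell under the fold limit without 14-day WT lung replicate 3, where it was -0.92, without WT-host tumor replicates 3, 4 or 6, and with GC offsets, while the difference of -0.55 in KO hosts (SE 0.33, FDR 0.133) did not pass. Without 14-day KO replicate 2, 6 of the 10 genes passed in KO hosts and 7 in WT hosts, and in KO hosts the differences were -3.80 for *S100a8*, -3.96 for *S100a9* and -0.80 for *Il1b* (FDR 0.0120, under the fold limit).

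*Mmp9*, *Clec4d* and *Trem1* were the genes that passed in neither host. *Mmp9* had 1.96, 2.34 and 7.10 FPKM at the lowest, median and highest in tumors of WT hosts and 1.52, 3.04 and 10.9 FPKM in tumors of KO hosts, so its mean was 84.8% and 91.2% of that in the 14-day lungs. Its log2 differences were -0.06 (95% interval -1.10 to 0.99) and -0.15 (-1.17 to 0.87). *Clec4d* had 2.83, 4.4 and 6.20 FPKM in tumors of WT hosts and 1.15, 3.01 and 18.2 FPKM in those of KO hosts, with differences of -0.02 (-1.01 to 0.97) and 0.41 (-0.55 to 1.38). *Trem1* had 0.54, 1.40 and 2.92 FPKM and 0.89, 1.62 and 3.05 FPKM, with differences of -0.65 (SE 0.31, FDR 0.0645) and -0.44 (SE 0.31, FDR 0.212). The summed markers of monocytes and macrophages, cells that also express *Il1b*, *Clec4d* and *Trem1*, were 211 to 565 FPKM in tumors and 122 to 246 FPKM in 14-day lungs, and their part in these differences was not tested. Markers of lung epithelium and endothelium summed to 24.8 to 37.5 FPKM in tumors and 32873 to 37325 FPKM in 14-day lungs, as the tissue labels say.

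**Figure D5:**
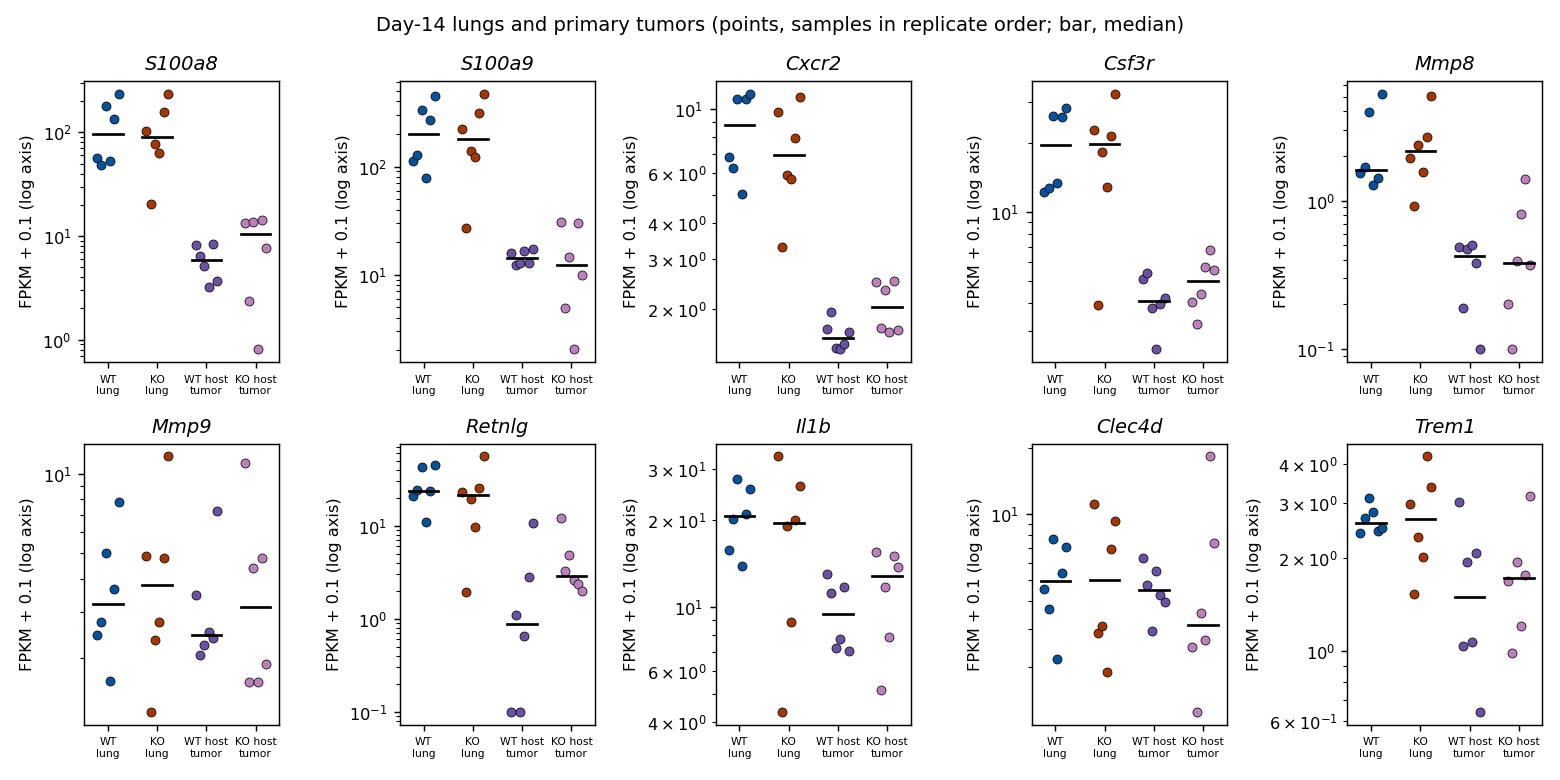
FPKM + 0.1 on a log axis in 14-day lungs and primary tumors of WT and KO hosts, with 6 samples in each group and the bar at the median. *S100a8* has medians of 95.8 and 89.9 FPKM in lungs against 5.71 and 10.3 FPKM in tumors, whereas the *Mmp9* and *Clec4d* groups overlap between tissues.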

How the data were processed

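Bulk RNA of 20 lungs and 12 primary tumors was sequenced with a stranded mRNA kit. The authors aligned reads to the mouse genome with STAR and quantified genes with RSEM, and the submitters' processing notes name the build mm10, the same assembly as GRCm38. The deposited table of RSEM expected counts, rounded and not normalized, was used for the tests. They also deposited FPKM values, scaled by the authors for transcript length and library size, and these are printed as levels. The depth of 4446323 to 8318711 counts per library limits genes with few counts, and counting error is large for *Mmp8* and *Clec4d*.

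Groups were taken from GEO's labels. The 10 genes, the other gene lists and the tests were chosen with earlier results of these data known. The quasi-likelihood test of edgeR 4.0.16 (R 4.3.3) was run after filterByExpr and TMM normalization with 1 mean per group, in fits of the 20 lungs (16029 genes), the 12 tumors (13830 genes) and the 24 samples of day 14 (16115 genes). FDR is the Benjamini-Hochberg adjusted p over all genes of a fit. Limits were an FDR of 0.25 and 1.5-fold in lungs, an FDR of 0.25 for the interaction, and an FDR of 0.05 and 2-fold in comparisons with tumors. SE values are absolute log2 fold changes over the root of F, and 95% intervals use them with the degrees of freedom of the test. Labels do not say which samples are littermates, and p-values weigh a difference between groups against the spread between these samples. The test was checked on simulated counts with 200 changed genes. Named are all 10 genes, the genes of the other lists past the limits, the direct ligands, receptors and partners of the 10, and the 10 other genes with the highest Pearson correlation over the 20 lungs between log2(CPM + 1) and the mean z-score of the 10 genes. The other genes named without passing were chosen after their values were seen.

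Alternatives were DESeq2 1.42.0, no filter, RLE size factors, a minimum of 10 counts per sample, limma 3.58.1 on log2(FPKM + 1) and log2(FPKM + 0.1), a replicate block, fits restricted to the groups compared, removal of Rn7s1, Rn7s2 and Rn7sk, other limits and each sample left out in turn. The other limits were an FDR of 0.05 in lungs and an FDR of 0.25 with a 1.5-fold change in comparisons with tumors. Offsets for GC content were added after seeing the data. Promoters were taken from RefSeq (GRCm38.p6) and positions from GENCODE M21. Figures and summaries were made in Python 3.11.15 (matplotlib 3.10.9, numpy 2.4.6, pandas 2.3.3). Metastasis counts, images and proteomic data of the study were not analysed here.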

Additional observations from a re-analysis of the deposited data

Results flagged for a closer look

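In 60 groups of 4 or 6 samples, 1 for each gene and group, 8 had a highest sample that Dixon's test sets apart from the rest at the 95% level. A chance rate of 1 in 20 holds for independent groups with normal spread. These genes move together, the same samples recur and FPKM was tested on a linear scale, so the 8 cannot be set against that rate. In control KO lungs, replicate 3 was high in *S100a9*, at 94.1 FPKM against 55.9 to 60.8 in the others, and in *Retnlg*, at 17.6 FPKM against 7.96 to 8.83. In 14-day KO lungs, replicate 6 had 11.5 FPKM of *Mmp9*, against 1.15 to 4.79 in the others. In tumors of WT hosts, replicate 6 was high in *Mmp9*, at 7.10 FPKM against 1.96 to 3.37, and in *Retnlg*, at 10.7 FPKM against 0 to 2.71. In tumors of KO hosts, replicate 1 was high in the same genes, with 10.9 FPKM of *Mmp9* against 1.52 to 4.69 and 11.9 FPKM of *Retnlg* against 1.89 to 4.76. Replicate 5 of that group had 18.2 FPKM of *Clec4d*, against 1.15 to 7.27 in the others. The low values of 14-day KO replicate 2 did not reach the critical value in any of the 10 genes. The test used FPKM on a linear scale, where the spread among the other lungs of that group kept a low lung from being flagged. It therefore cannot say whether this lung stands apart.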

How the results depend on the processing

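The number of the 10 genes past the limits was 4 in WT lungs, and it became 1 with limma on log2(FPKM + 1), 1 on log2(FPKM + 0.1), 0 at the other limits and 8 with only the compared groups in the fit, with 0 to 8 as lungs were left out. In KO lungs it was 2, and it became 5 with DESeq2, 1 without Rn7s1, Rn7s2 and Rn7sk, and 0 with limma on either pseudocount, GC offsets, the other limits or only the compared groups, with 0 to 7 as lungs were left out. Over both genotypes it was 9, and it became 3 at the other limits, with 8 to 9 as lungs were left out. With at least 10 counts in every sample, 4 of the 10 genes could be tested between tumors and lungs, and 3 passed in WT hosts and 2 in KO hosts. The causes of these shifts were not tested. Between genotypes in lungs, in the interaction and between tumors, 0 of the 10 genes passed with each alternative, DESeq2 and limma included.

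The labels do not say whether a lung and a tumor of the same number come from 1 mouse. In no comparison did all same-numbered samples correlate above 0.1, so the numbers were not taken as pairs. In tumors and lungs of KO hosts 5 of 6 correlated best with their own number, as a hint from the data. With a replicate block, 4 genes passed in WT lungs, 3 in KO lungs, 8 over both genotypes, 0 between genotypes or tumors, and 7 and 6 between tumors and lungs of WT and KO hosts.

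Of 2681 values of single genes under alternatives, 2488 kept direction and call, 89 lost a call, 26 gained 1 and 78 changed sign, all of these among uncalled differences. For KO against WT 14-day lungs, *Csf3r* was -0.028 with the block and -0.21 and -0.24 with limma, and *Clec4d* -0.00046 without a filter, -0.070 with the block and -0.00042 with the compared groups. The *Csf3r* interaction was -0.12 and -0.14 with limma. Between tumors, *S100a9* was -0.11 with the block and -0.37 and -0.46 with limma, and *Clec4d* -0.076 and -0.18 with limma. Between tumor and lung of WT hosts, *Mmp9* was 0.14 with GC offsets and *Clec4d* 0.030 with the block and 0.26 with GC offsets, and in KO hosts *Clec4d* was -0.19 and -0.27 with limma.

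With samples left out, the KO minus WT difference at 14 days ran from -0.50 to 0.19 for *S100a8*, -0.48 to 0.22 for *S100a9*, -0.19 to 0.24 for *Csf3r*, -0.43 to 0.31 for *Mmp8*, -0.13 to 0.51 for *Mmp9*, -0.37 to 0.060 for *Il1b*, -0.27 to 0.19 for *Clec4d* and -0.18 to 0.052 for *Trem1*. In controls it ran from -0.066 to 0.48 for *S100a8*, -0.19 to 0.24 for *Cxcr2*, -0.079 to 0.60 for *Mmp8* and -0.23 to 0.32 for *Retnlg*. The interaction ran from -0.65 to 0.079 for *Mmp8*, -0.032 to 0.51 for *Il1b* and -0.0077 to 0.50 for *Clec4d*. Between tumors the ranges were -0.20 to 0.37 for *S100a9*, -0.46 to 0.69 for *Mmp9*, -0.23 to 0.63 for *Clec4d* and -0.10 to 0.47 for *Trem1*. Between tumor and lung they were -0.50 to 0.10 for *Mmp9* and -0.16 to 0.14 for *Clec4d* in WT hosts, and -0.83 to 0.25 and -0.25 to 0.64 in KO hosts.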
